A study of Mus musculus with 15 samples.

Results

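The chaperones and disulphide isomerases of the endoplasmic reticulum were followed in NIH 3T3 cells made to express 1 of 4 C/EBP transcription factors (α, β, δ or ε). NIH 3T3 is an established line of mouse embryo fibroblasts. The set holds 9 of the 8251 genes that the array names: the chaperones Hspa5, Hsp90b1, Calr and Canx, the disulphide isomerases Pdia3, Pdia4, Pdia6 and P4hb, and Xbp1, a transcription factor that induces such genes. All probe sets that the annotation of the Affymetrix MG_74Av2 array assigned to 1 of these symbols alone were taken, which gave 13 of the 12422 probe sets that are not controls. Of these, 11 probe sets for 8 genes were bright enough to be tested, among 6963 tested in all.

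The cells carried a plasmid, pMTCB6+, whose metallothionein promoter is switched on by zinc. It held a human C/EBP cDNA in 4 groups and no insert in the group called vector. The groups are called vector, alpha, beta, delta and epsilon after the array titles, with 3 arrays each, and all cells, vector included, had received zinc sulphate for 16 h. Transfectants were selected with G418 and are described both as polyclonal and as triplicate clones. It is not known here if the 3 arrays of a group stem from independent transfections. The p-values cover only the spread between arrays within groups, pooled over the 5 groups and moderated over all tested probe sets. That spread may be technical. If the arrays of a group share a transfection, a difference between transfected pools and an effect of the C/EBP cannot be told apart. The RNA came from whole cultures, in which fewer cells with a transcript and less of it per cell cannot be told apart either.

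Proteins bound for secretion or for membranes enter the endoplasmic reticulum unfolded. There Hspa5 (BiP) and Hsp90b1 (GRP94) hold unfolded chains, calnexin and calreticulin retain glycoproteins through trimmed sugars, and the disulphide isomerases make and rearrange disulphide bonds. When unfolded protein accumulates, the sensors Ern1 (IRE1), Atf6 and Eif2ak3 (PERK) start the unfolded protein response, in which spliced XBP1 and cleaved ATF6 raise transcription of the folding genes and PERK slows translation through eIF2α. Fibroblasts, which secrete collagen and fibronectin, use this machinery heavily. C/EBPs are bZIP transcription factors, and ATF6 and XBP1 belong to the same broad class.

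The promoters of the members were searched for a known element of stress-induced folding genes. Matches in such genes are therefore a description and not an independent finding. The endoplasmic reticulum stress element, which binds ATF6 together with the CCAAT-binding factor NF-Y, was searched for as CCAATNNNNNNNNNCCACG on both strands in the 250 bases before each gene's annotated start, in promoter sequences from RefSeq (GRCm38.p6). It matched in 5 of the 9 member promoters (Hspa5, Hsp90b1, Calr, Canx and Pdia6, with 2 matches in Hsp90b1) and in 37 of all 32851 promoters (0.113%). The sequences of Hspa5, Hsp90b1 and Pdia6 are shown because all 3 hold the element and are described in turn below; capitals mark the element, and each sequence reads 5′ to 3′ toward the gene.
Hspa5 (chr2:34771840-34772089, plus strand): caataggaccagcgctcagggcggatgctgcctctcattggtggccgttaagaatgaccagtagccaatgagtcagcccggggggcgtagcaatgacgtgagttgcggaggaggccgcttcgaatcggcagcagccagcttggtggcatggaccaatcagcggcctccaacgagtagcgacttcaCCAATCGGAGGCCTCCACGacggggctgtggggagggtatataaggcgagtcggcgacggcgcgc
Hsp90b1 (chr10:86705445-86705694, minus strand): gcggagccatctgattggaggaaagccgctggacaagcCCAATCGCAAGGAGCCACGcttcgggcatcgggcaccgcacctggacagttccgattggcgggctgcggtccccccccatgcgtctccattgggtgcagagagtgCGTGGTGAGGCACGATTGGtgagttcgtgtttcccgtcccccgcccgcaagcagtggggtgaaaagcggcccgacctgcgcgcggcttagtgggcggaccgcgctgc
Pdia6 (chr12:17266339-17266588, plus strand): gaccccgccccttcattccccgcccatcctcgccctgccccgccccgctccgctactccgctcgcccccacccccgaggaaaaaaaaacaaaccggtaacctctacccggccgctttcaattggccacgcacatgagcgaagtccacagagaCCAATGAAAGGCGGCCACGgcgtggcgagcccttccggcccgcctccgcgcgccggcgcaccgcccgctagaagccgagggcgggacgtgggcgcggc

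Other motifs of stress and C/EBP factors were searched for in the same way. The CCAAT box (CCAAT), which is also the left end of the stress element, matched in 8 of 9 member promoters, all but Xbp1, and in 33.8% of all promoters. A C/EBP core site (TTGCNNAA) matched in 2 of 9, Canx and Xbp1, against 9.56% of all promoters, and in Canx it reads the same on both strands. No member promoter held the second stress element (ATTGGNCCACG, 0.0304% of all), the ATF4 and C/EBP composite site (TGATGNAA, 3.45%) or the XBP1-binding UPRE core (TGACGTGG, 0.563%). These matches describe letters within the 250 bases only, and no binding was measured.

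**Figure D1:**
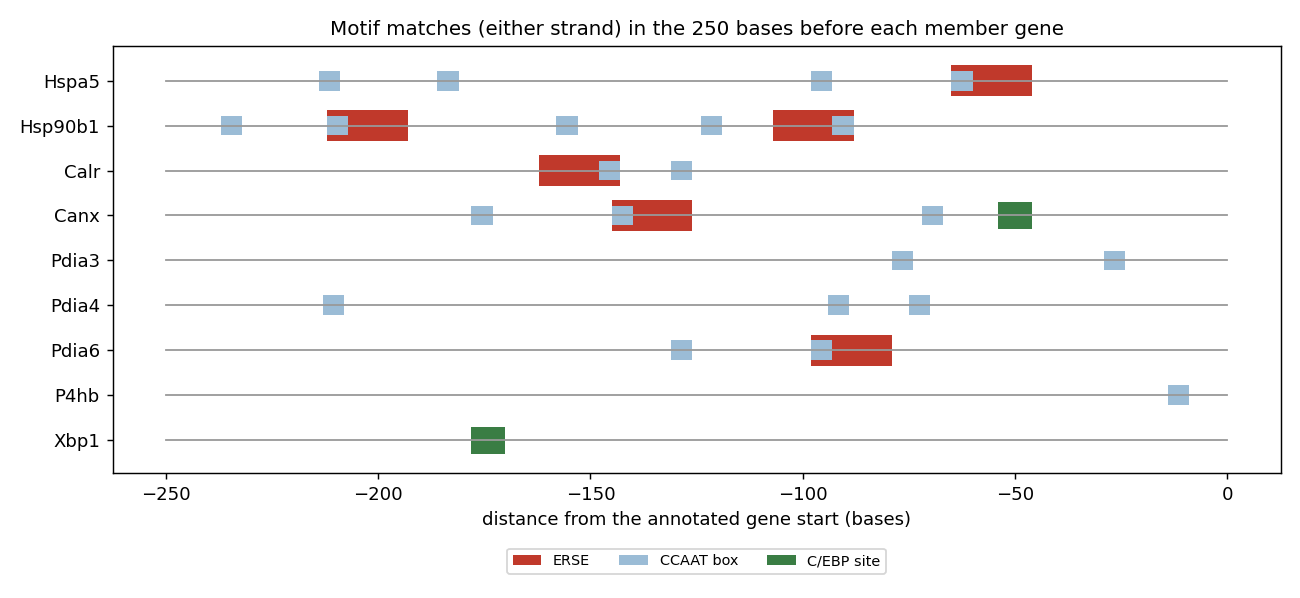
Motif matches on either strand in the 250 bases before each member gene, plotted by distance from the annotated start; red, stress element; blue, CCAAT box; green, C/EBP core site. Red boxes are seen in 5 promoters, with 2 in Hsp90b1, and Xbp1 holds a green box alone.

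Fibroblast markers were bright on the arrays. Of 9 fibroblast markers, 8 passed the signal filter; the exception was the Vim probe set, at 427 to 1184 units. Ptprc, Cd3e and Itgam, which mark leukocytes, never exceeded the pooled median of 1092 units. The summed signal of the 4 leukocyte markers on the array was 3636 to 4235 in vector, 1235 to 1628 in alpha, 1928 to 2605 in beta, 3216 to 3452 in delta and 1639 to 1761 in epsilon, and most of it came from Cd68, a lysosomal protein that fibroblasts can also make. Its part in the results was not tested. Of the other markers, Cdh1 (epithelial, at 2033 to 3406 units), Kdr (endothelial, at 803 to 2307) and Ighm (B lineage, at 1075 to 2780) passed the filter. Cdh1 exceeded the pooled median on all 15 arrays and Kdr on 13. The other 4 epithelial, 3 endothelial and 2 B-lineage markers on the array and all 3 adipocyte markers did not pass. Against vector, 3 fibroblast markers were called higher in beta (Col3a1, Pdgfrb and Col1a1) and 1 in epsilon (Col3a1), and Thy1 was called lower in alpha. Array medians of the deposited signals were 992.25 to 1149.7, and within-group correlations of log2 signals were 0.929 to 0.965. The number of arrays limits the precision.

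Against vector, Pdia6 rose in alpha, beta and epsilon and Xbp1 rose in alpha and epsilon, while Hspa5 was not called in any group. Signals below are in scaled intensity units, a difference is a difference of mean log2 signals with its standard error (SE), and a probe set was called at a Benjamini-Hochberg adjusted p below 0.05 over all 6963 probe sets in limma's moderated test. In alpha, 3 of the 11 tested member probe sets were called higher, where 7.17% of all tested probe sets were, and 0 were called lower, where 7.15% of all were. In beta the counts were 3 higher against 5.13% of all and 0 lower against 4.18%. In epsilon they were 5 higher against 9.38% and 0 lower against 6.91%. In delta, limma called 0 members in either direction, with 0 also at an unadjusted p below 0.05, against 0.359% of all probe sets called higher and 0% called lower. The called probe sets stood for 2 of the 8 tested genes in alpha, 1 in beta (Pdia6) and 4 in epsilon. The Canx probe set called in epsilon and the dimmest Pdia6 probe set, called in beta, lay under 1092 units on every vector array. They passed the signal filter only through C/EBP arrays, so these 2 calls are not independent of the filter. With the filter on 12 of 15 arrays, 9 member probe sets were tested. Of these, 3 in alpha, 2 in beta, 0 in delta and 4 in epsilon were called, none of them lower. The 4 comparisons share the vector arrays and so are not independent of each other.

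The median log2 difference over the 11 member probe sets was 0.56 in alpha, 0.38 in beta, 0.05 in delta and 0.68 in epsilon. Over all tested probe sets it was 0.00, 0.04, 0.01 and 0.08. Pdia6 gave 3 of the 11 probe sets. With only the brightest tested probe set of each of the 8 genes, the member median was 0.30, 0.14, 0.05 and 0.40. Members differed among themselves: differences ran from -0.31 to 0.97 in alpha, from -0.24 to 1.14 in beta, from -0.18 to 0.54 in delta and from -0.25 to 0.88 in epsilon. Over the 5 groups together, the moderated F-test called 4 member probe sets, those of Pdia6 and Xbp1, where it called 16.5% of all probe sets.

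**Figure D2:**
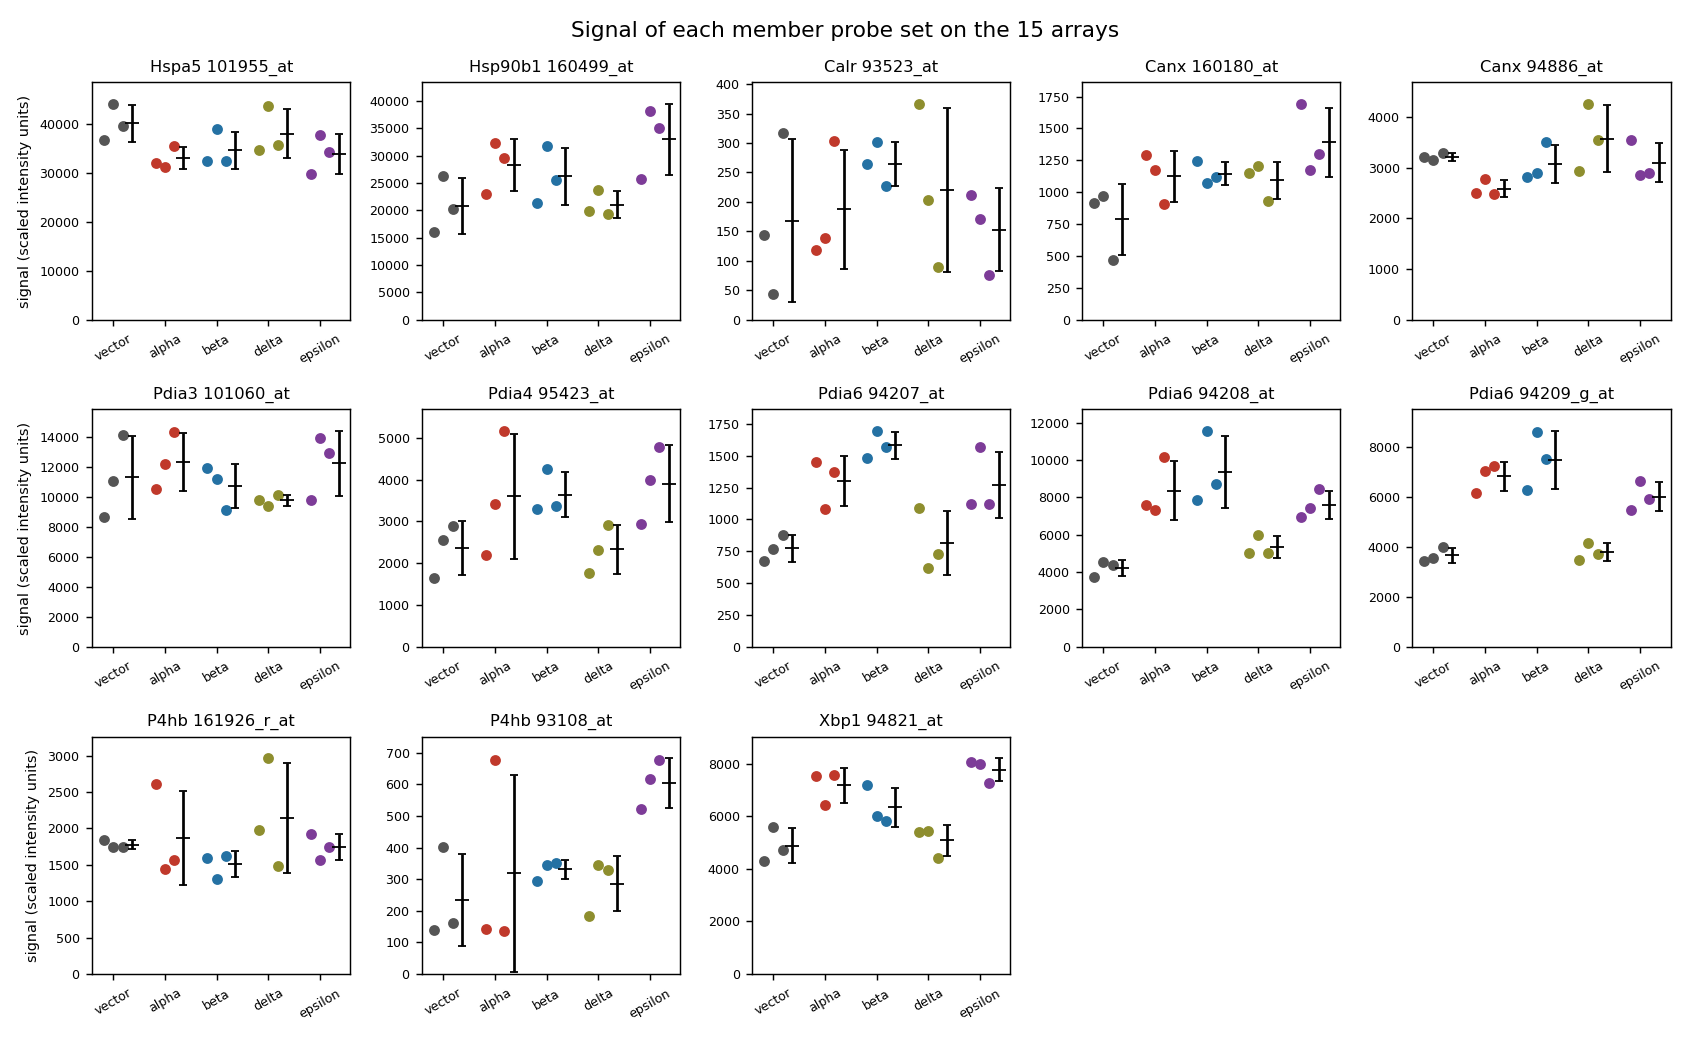
Signal of each of the 13 member probe sets on the 15 arrays (y axis, scaled intensity units, starting at 0); coloured points are arrays, black bars the mean and SD of 3 arrays. Pdia6 and Xbp1 are high in alpha, beta and epsilon and low in vector and delta, while Hspa5 differs little between groups.

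Hspa5, the Hsp70 of the endoplasmic reticulum and the usual marker of its stress response, was bright on every array. It read 36639, 44093 and 39583 units on the vector arrays and 32088, 31285 and 35559 in alpha. The beta arrays read 32449.9, 38927 and 32460.1, and the epsilon arrays 29684, 37806 and 34165. Delta read 34629, 43744 and 35615. All 3 alpha arrays lay below all vector arrays, whereas the beta, delta and epsilon ranges overlapped that of vector. How many of all tested probe sets separate from vector in this way was not counted. Here and below, such separation describes the arrays and adds no support to a difference that was not called. The alpha difference was -0.28 (SE 0.14, adjusted p = 0.206), the epsilon difference -0.25 (adjusted p = 0.245), the beta difference -0.21 (adjusted p = 0.385) and the delta difference -0.08 (adjusted p = 0.996). In alpha the 95% interval of the fold ran from 0.675 to 1.005. None of these 4 values was called, and none changed sign under another scaling, floor or filter. Without further scaling of the deposited values, Hspa5 was called lower in alpha (-0.26, adjusted p = 0.0459) and in epsilon (-0.28, adjusted p = 0.0315).

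Hsp90b1, the Hsp90 of the endoplasmic reticulum, has the stress element in its promoter, as Hspa5 does, and the part of that element was not tested. Means of Hsp90b1 in the C/EBP groups lay above vector and those of Hspa5 below. Of these differences, only that of Hsp90b1 in epsilon was called. The Hsp90b1 vector arrays read 16070.4, 26202 and 20229 units and its epsilon arrays 25668, 38149.7 and 35085. Alpha read 22978, 32322 and 29538, beta 21415, 31759.8 and 25493, and delta 19872, 23808 and 19411. The lowest epsilon array lay just under the highest vector array, so the groups overlapped. It rose 1.59-fold in epsilon (log2 0.67, SE 0.20, adjusted p = 0.0310), from 20834 ± 5093 to 32968 ± 6505 (SD, n = 3). That call was lost in 4 of 14 alternative runs, among them that without the signal filter (adjusted p = 0.0951) and a fit of these groups alone (0.0785). It was also lost without vector replicate 1 (0.143), vector replicate 3 (0.0850), epsilon replicate 2 (0.119) or epsilon replicate 3 (0.104). In alpha and beta Hsp90b1 read 0.45 (adjusted p = 0.161) and 0.34 (adjusted p = 0.339), and in delta 0.04 (adjusted p = 0.996). It was called higher in alpha with quantile normalization (0.61, adjusted p = 0.00177), without further scaling (adjusted p = 0.0482) and with array weights (0.0426), and in beta with quantile normalization (0.0445).

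The lectin chaperones gave little. Calr, which encodes calreticulin, was read by a probe set at 44.2 to 366.5 units, with 7 of 15 arrays at or below the floor of 190 units that was set before taking logs, and it was not tested. Canx, which encodes calnexin, was read by 2 probe sets that did not give the same picture. The dimmer one read 918, 972 and 468 units in vector and 1693, 1178 and 1304 in epsilon, without overlap, and rose in epsilon (log2 0.88, SE 0.28, adjusted p = 0.0429). Without vector replicate 3, the array at 468, that difference was 0.54 (adjusted p = 0.197), and the call was also lost in 9 other fits that left out 1 array. It was lost in 6 of 13 other alternative runs too. The brighter Canx probe set read 3207, 3149 and 3301 in vector and 3543, 2868 and 2906 in epsilon, a difference of -0.06 (adjusted p = 0.845). Its 3 alpha arrays, at 2505, 2789 and 2484, lay below vector but were not called (-0.31, adjusted p = 0.202).

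Among the isomerases, only Pdia6 (P5), which binds Hspa5, was called in the fit that does not use the array number. It was read by 3 probe sets, of which 2 were designed to the same database sequence and are not independent. The brightest read 3754, 4519 and 4399.7 units in vector, 7608, 7321 and 10163 in alpha, and 7848, 11557 and 8732 in beta. Its epsilon arrays read 6956, 7430.4 and 8428 and its delta arrays 5008, 6004 and 5036. Every alpha, beta and epsilon array thus lay above every vector and every delta array, and the delta arrays lay narrowly above vector. This probe set rose 1.96-fold in alpha (log2 0.97, SE 0.16, adjusted p = 5.07e-04), 2.20-fold in beta (log2 1.14, adjusted p = 2.75e-04) and 1.80-fold in epsilon (log2 0.85, adjusted p = 0.00186). In delta it was 0.34 (95% interval 0.00 to 0.69, adjusted p = 0.795).

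The probe set of the same sequence read 3431, 3562 and 4002 units in vector and 3484, 4169.7 and 3715 in delta. It read 6154, 7051 and 7261 in alpha, 6296, 8615 and 7532 in beta, and 5499, 6646 and 5911 in epsilon. Here vector and delta overlapped and the other 3 groups stood apart from both. It rose 1.86-fold in alpha, 2.03-fold in beta and 1.64-fold in epsilon (adjusted p = 2.48e-04, 2.00e-04 and 0.00195). For these 2 probe sets, the calls in alpha, beta and epsilon held under every alternative run and with any 1 array left out.

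The third and dimmest Pdia6 probe set read 670.0, 768 and 881 units in vector and 1484, 1694 and 1568 in beta. It rose 2.06-fold in beta (log2 1.04, SE 0.25, adjusted p = 0.0150). That call was lost without the 5 arrays numbered 1, those of each group whose titles carry no number (0.106), and without vector replicate 1 (0.0599), beta replicate 2 (0.0613) or beta replicate 3 (0.0546). Its alpha and epsilon arrays, at 1451, 1079 and 1370.4 and at 1121, 1572 and 1122, also lay above all vector arrays. Their differences were 0.75 (adjusted p = 0.0602) and 0.71 (adjusted p = 0.0674), and neither was called. In all 3 Pdia6 probe sets the group means stood in the order vector, delta, epsilon, alpha, beta.

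Pdia4 (ERp72), an isomerase with several thioredoxin-like domains, read 1648, 2550.0 and 2885 units in vector and 2939, 3982 and 4787 in epsilon. The beta arrays read 3297, 4249 and 3367, the alpha arrays 2199, 3425 and 5159, and the delta arrays 1764, 2303 and 2914. All epsilon and all beta arrays lay above all vector arrays, and the alpha and delta arrays overlapped them. This separation is a description only. Array number 1 was the lowest of its group in all 5 groups. Differences of 0.74 in epsilon (95% interval 0.13 to 1.34, adjusted p = 0.0920), 0.65 in beta (adjusted p = 0.180) and 0.56 in alpha (adjusted p = 0.235) were not called, nor was -0.01 in delta (adjusted p = 0.999). With the array number as a block in the limma fit, Pdia4 was called in alpha, beta and epsilon (adjusted p = 0.0288, 0.0163 and 0.00518).

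Pdia3 (ERp57), which works with calnexin and calreticulin on glycoproteins, overlapped vector in every group. It averaged 11325 ± 2757 units in vector, 12367 ± 1925 in alpha, 10762 ± 1463 in beta, 9794 ± 359 in delta and 12262 ± 2168 in epsilon (SD, n = 3). The largest of its differences was -0.18 in delta (adjusted p = 0.982), and the 95% intervals of all 4 lay between -0.56 and 0.53. P4hb, the archetypal isomerase and also a subunit of collagen prolyl 4-hydroxylase, was tested by 1 probe set, at 1777 ± 59.0 in vector, with C/EBP group means from 1509.6 to 2145. None of its differences, from -0.24 to 0.21, was called. The other P4hb probe set lay under the filter at 136 to 678 units, with 5 arrays at the floor. Its epsilon arrays, at 522, 616 and 677, all lay above vector at 138, 401 and 160.1, and with no filter that difference was not called (log2 1.30, adjusted p = 0.131).

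Xbp1, whose unconventionally spliced mRNA encodes an activator of folding genes, read 4313, 5602 and 4703 units in vector. It read 7548, 6416 and 7586 in alpha, 7182, 5997 and 5830.0 in beta, 5391, 5443 and 4414 in delta and 8069.9, 7971 and 7267 in epsilon. Alpha, beta and epsilon each lay above all vector arrays, and delta overlapped vector. Xbp1 rose 1.60-fold in epsilon (log2 0.68, SE 0.14, adjusted p = 0.00275) and 1.48-fold in alpha (log2 0.56, SE 0.14, adjusted p = 0.00970). The beta difference of 0.38 was not called (adjusted p = 0.0979), nor was 0.06 in delta (adjusted p = 0.996). Without the 5 arrays numbered 1, the calls were lost in epsilon (0.57, adjusted p = 0.0618) and in alpha (0.44, adjusted p = 0.158), and the alpha call was also lost without vector replicate 1 alone (adjusted p = 0.0532). The array signal does not separate spliced from unspliced Xbp1 as used here.

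**Figure D3:**
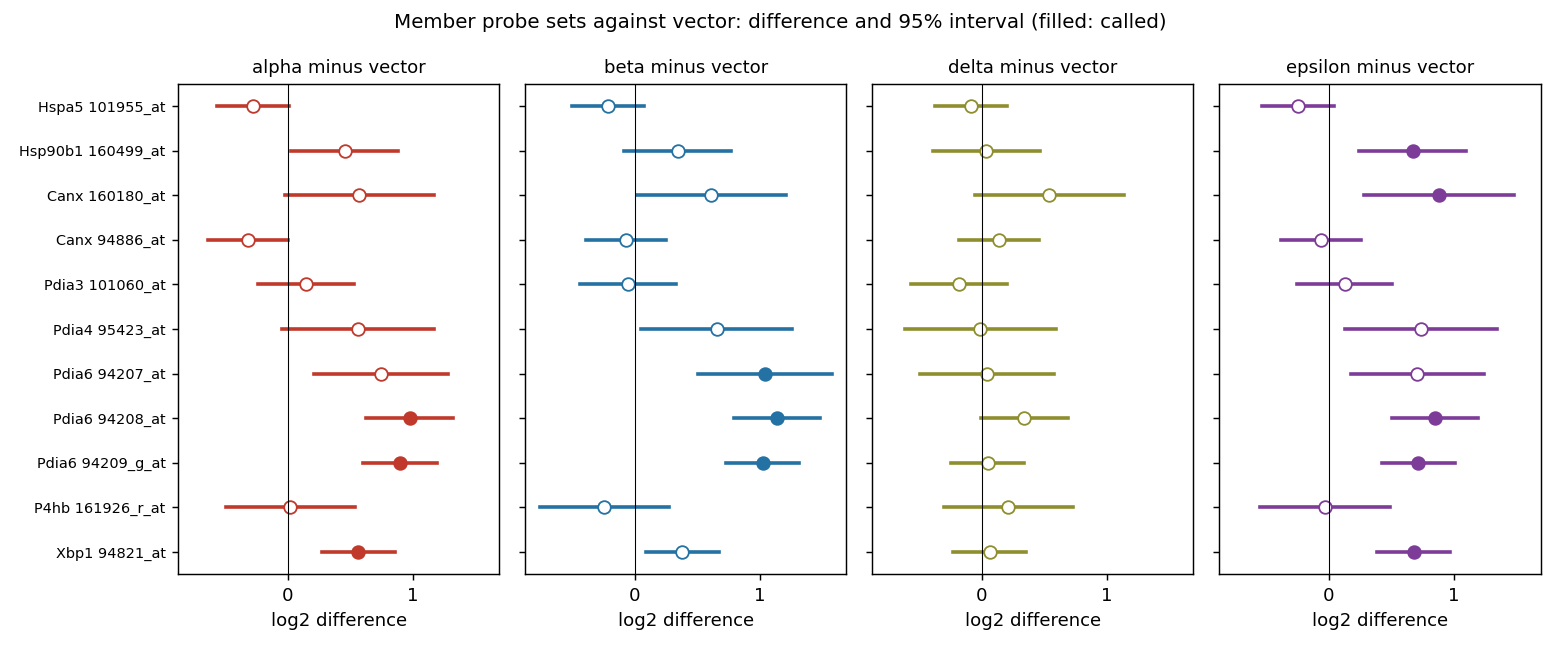
Difference of mean log2 signal from vector (x axis) for the 11 tested member probe sets in each C/EBP group, with 95% intervals; filled points were called at an adjusted p below 0.05. Filled points number 3 in alpha, 3 in beta, 0 in delta and 5 in epsilon, and all lie to the right of 0.

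The C/EBP groups were then compared with each other, which does not involve the vector arrays in the difference. The F-test over the 4 C/EBP groups called 3 member probe sets, the 2 brighter ones of Pdia6 and Xbp1, where it called 10.2% of all. Members differed where delta was one side of the pair. Alpha exceeded delta in 3 of 11 member probe sets (8.4% of all called in either direction): both bright Pdia6 probe sets (0.63 and 0.85, adjusted p = 0.0216 and 7.06e-04) and Xbp1 (0.50, adjusted p = 0.0305). Beta exceeded delta in 3, all of Pdia6 (4.77% of all): 1.0, 0.80 and 0.97, adjusted p = 0.0293, 0.00779 and 4.72e-04. Delta lay under epsilon in 2 (8.21% of all): one Pdia6 probe set (-0.67, adjusted p = 0.00587) and Xbp1 (-0.62, adjusted p = 0.00968). Without delta replicate 3, calls were lost for the brightest Pdia6 probe set against alpha (adjusted p = 0.0890), for the dimmest against beta (0.104) and for Xbp1 against alpha (0.163) and epsilon (0.0617).

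Alpha, beta and epsilon were not told apart by any member. The count was 0 of 11 between alpha and beta (2.86% of all called; 0 members at an unadjusted p below 0.05), 0 between alpha and epsilon (1.31%; 0) and 0 between beta and epsilon (2.34%; 2). For the brightest Pdia6 probe set, the 95% interval ran from -0.51 to 0.18 for alpha minus beta, from -0.22 to 0.47 for alpha minus epsilon and from -0.06 to 0.63 for beta minus epsilon. For Xbp1 the alpha minus epsilon interval was -0.41 to 0.18. These intervals allow differences of up to about the size of the smaller calls, so they do not show equal levels. In the order of Xbp1 group means, vector, delta, beta, alpha and epsilon, no 2 neighbours were called different. In that of Pdia6, the neighbours delta and epsilon were, in 1 of 3 probe sets.

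Correlations between members are given as a description over the 15 arrays, which share their groups. The 2 Pdia6 probe sets of the same sequence correlated at r = 0.943 (0.710 on deviations from group means). Hsp90b1 and Pdia4 correlated at 0.786 (0.625 on deviations), and Pdia4 and the brightest Pdia6 probe set at 0.770 (0.684). Hspa5 ran otherwise: with Hsp90b1 it gave -0.03 over the arrays but 0.797 on deviations, and with the brightest Pdia6 probe set -0.35 but 0.781. With the dimmest Pdia6 probe set the deviations gave 0.063. Array number 1 was the lowest of its group in 4 of 5 groups for Hspa5, for Hsp90b1 and for the brightest Pdia6 probe set, and its part in these correlations was not tested. The genes whose log2 signal was most like that of Hspa5, of 5330, were Dnajb6 (r = 0.948), a cytosolic and nuclear J-domain chaperone, Atp1b3 (0.937), a sodium pump subunit, and Hspa9 (0.931), the mitochondrial Hsp70. Arpc2, Bud31, Bach1, Rsrp1 and Glmp followed at 0.930 to 0.909. On deviations from group means, Dnajb6, Atp1b3 and Hspa9 gave 0.944, 0.894 and 0.908, and the others 0.880 to 0.932. On the 5 group means, Dnajb6, Atp1b3 and Hspa9 gave 0.960, 0.996 and 0.981. This likeness thus includes variation between arrays of the same group and is not a group pattern alone.

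Related genes were counted from lists, each gene by its brightest tested probe set and relative to vector, in the order alpha, beta, delta and epsilon. Of all tested probe sets, 7.17%, 5.13%, 0.359% and 9.38% were called higher and 7.15%, 4.18%, 0% and 6.91% lower. All list counts below may be read against these shares, and several lie near them. In the same limma test, no gene of the 11 lists was called in delta. Values below are given for calls that were kept under every alternative run and with any 1 array left out, so their stability reflects this choice. The exception is Nfe2l2, whose call in alpha was lost without the 5 arrays numbered 1 (adjusted p = 0.121). Other calls were lost in some fits and are left out below, among them Dnajb9 (-1.05) and Trib3 (-1.47) in beta and Dnajc10 (0.50) in alpha. Among 10 co-chaperones and exchange factors of the endoplasmic reticulum, 1, 2, 0 and 2 rose and 1, 1, 0 and 1 fell. The gene that fell was Dnajb9 (ERdj4), a J-domain partner of Hspa5 and a classical XBP1 target, from 3880 ± 618 units in vector to 1376 ± 504 in alpha (log2 -1.54, adjusted p = 4.55e-04) and 1386 ± 376 in epsilon (log2 -1.51). Dnajc10 (ERdj5), a disulphide reductase, rose in beta (0.83) and epsilon (0.79). Among 16 other oxidoreductases and prolyl isomerases, 1, 0, 0 and 2 rose and 1, 0, 0 and 0 fell. Ero1a, which oxidises the disulphide isomerases, rose 2.18-fold in alpha and 1.92-fold in epsilon (adjusted p = 6.06e-05 and 3.96e-04).

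The lists of glycoprotein folding and export may be read against the shares of all probe sets called higher, 7.17%, 5.13%, 0.359% and 9.38%. Of 15 genes of N-glycan transfer and glucose trimming, 4, 2, 0 and 5 rose and 0 fell in any group. Lman1 (ERGIC-53), a mannose lectin that carries cargo out of the endoplasmic reticulum, rose 2.73-fold in alpha, 2.33-fold in beta and 2.11-fold in epsilon. Mogs, the first trimming glucosidase, rose 1.70-fold in alpha, and Dpagt1, which starts glycan assembly, rose 1.73-fold in epsilon. Of 14 genes of transport to the Golgi, 2, 0, 0 and 2 rose and 0 fell, with Sec23a, a COPII coat subunit, at 0.83 in alpha and 0.93 in epsilon. Of 14 translocation genes, 2, 1, 0 and 2 rose and 0 fell, and of 10 degradation genes 1, 0, 0 and 1 rose and 0 fell. Of the 7 calcium-handling genes, 0, 2, 0 and 1 rose and 0, 0, 0 and 1 fell.

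Of 15 genes of the stress sensors and the integrated stress response, 2, 0, 0 and 3 rose, 5, 3, 0 and 6 fell and 8, 12, 15 and 6 were not called. Nfe2l2 (NRF2), an activator of antioxidant genes, rose in alpha (0.66, adjusted p = 0.00532). Ddit3 (CHOP), a C/EBP-related factor of prolonged stress, fell from 10866 ± 1577 units in vector to 2453 ± 726 in alpha, 4539 ± 414 in beta and 2423 ± 65.1 in epsilon (log2 -2.18, -1.25 and -2.15). Ppp1r15a (GADD34), the phosphatase subunit that restores translation, fell too (log2 -2.51, -2.05 and -2.57). Trib3, a target of ATF4 and CHOP, fell in alpha and epsilon (log2 -2.33 and -3.67). Of 22 cytosolic and mitochondrial chaperones, 0, 0, 0 and 1 rose and 12, 10, 0 and 11 fell. Hspa1a, the inducible cytosolic Hsp70, fell in alpha, beta and epsilon (log2 -4.08, -2.32 and -5.40). Hspa1a has a near-identical copy, Hspa1b, so which of them a probe set reads is uncertain.

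**Figure D4:**
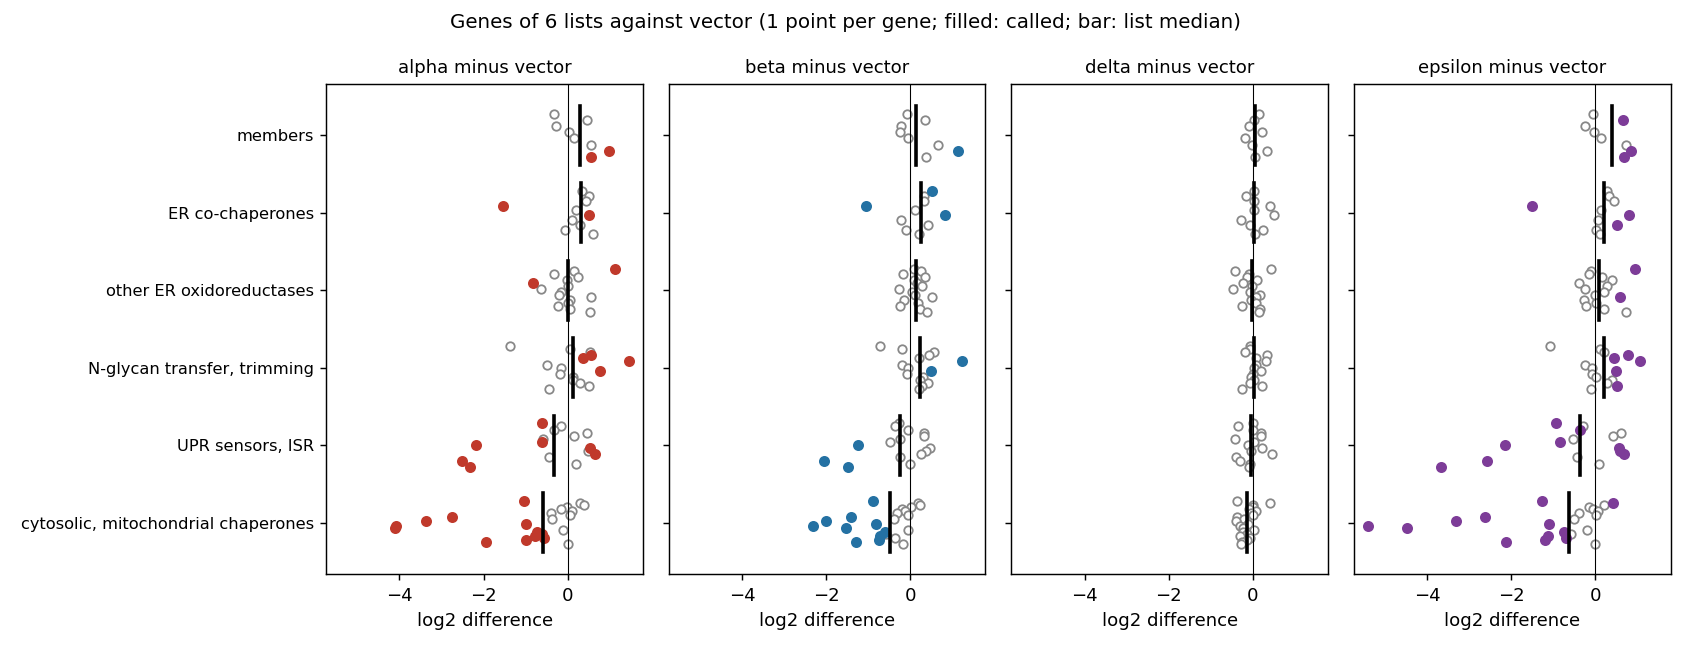
Difference of mean log2 signal from vector (x axis) for each tested gene of the 9-gene set and of 5 related lists, 1 point per gene by its brightest tested probe set. Genes that were not tested, such as Calr, have no point. Filled points were called and black bars are list medians. Called cytosolic chaperones lie mostly to the left of 0 in alpha, beta and epsilon, while called members lie to the right, and delta has no filled point.

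Secreted clients and their processing enzymes were also read. Of all tested probe sets, 7.17%, 5.13%, 0.359% and 9.38% were called higher and 7.15%, 4.18%, 0% and 6.91% lower. Of 13 collagens and other matrix genes, 2, 4, 0 and 3 rose and 0 fell. Dcn, the collagen-binding proteoglycan decorin, rose 3.93-fold in alpha, 3.09-fold in beta and 9.77-fold in epsilon, and Col3a1 rose 2.24-fold in beta and 2.19-fold in epsilon. Of 6 collagen-modifying genes, 1, 1, 0 and 2 rose and 1, 1, 0 and 1 fell. Lox, the collagen cross-linking oxidase, rose 1.89-fold, 2.08-fold and 1.98-fold in alpha, beta and epsilon. P4ha2, the catalytic partner of P4hb in prolyl hydroxylase, fell in the same 3 groups (log2 -0.65, -0.71 and -0.62). The median log2 difference of the matrix list was -0.07, 0.37, -0.03 and 0.13, against -0.59, -0.49, -0.13 and -0.63 for the cytosolic and mitochondrial chaperones.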

How the data were processed

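Total RNA was hybridised to 15 arrays, 3 per group. Per the labels, the authors used Microarray Suite 5.0 to turn each scan into a linear intensity for every probe set; the array's genome build is not given in the sources used here. No detection calls were used. Of 12488 probe sets, 66 controls were left out; the platform annotation names 1 gene for 10833 of the rest, several for 396 and none for 1193. Each array was scaled to a common median, the pooled 20th percentile (189.652) served as a floor, and the deposited intensity so treated was put on the log2 scale. Probe sets above the pooled median (1092.06) on at least 3 of 15 arrays were tested.

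One model with a coefficient for each of the 5 groups was fitted with lmFit and eBayes (trend on) from limma 3.58.1, run in R 4.3.3; tests were two-sided, with Benjamini-Hochberg over 6963 probe sets within each contrast. The fit was tested on simulated data. No 2 arrays were identical. Every member probe set is described, and the 8 genes most like Hspa5 are given. Up to 4 called genes with the largest differences per list and contrast were put through the alternatives below, and part of them are named. Members and lists were chosen with earlier results of these data known. Alternatives were other scalings, floors and filters, no trend, array weights, a replicate block, fits of the compared groups alone, a univariate test, fits without the 5 arrays numbered 1, and leaving out each array. Promoters and motifs were read from RefSeq sequences by exact letter matching.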

Additional observations from a re-analysis of the deposited data

Results flagged for a closer look

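Differences between C/EBP groups that passed the direct test all had delta as 1 side, and no explanation was tested. The array as a whole ran the same way. Of all tested probe sets, 8.4%, 4.77% and 8.21% were called between delta and alpha, beta and epsilon. Between alpha and beta, alpha and epsilon, and beta and epsilon the shares were 2.86%, 1.31% and 2.34%. The pattern is thus not particular to the members. Alpha minus delta was 0.63 and 0.85 for the 2 bright Pdia6 probe sets and 0.50 for Xbp1. Beta minus delta was 1.0 for the dim Pdia6 probe set and 0.80 and 0.97 for the bright ones. Delta minus epsilon was -0.67 for 1 bright Pdia6 probe set and -0.62 for Xbp1. The bright probe set with 0.85, 0.97 and -0.67 kept all 3 calls in every alternative run and with any 1 array left out, and the value of 0.80 was kept too. The alpha minus delta value of 0.63 lost its call without alpha replicate 3 (adjusted p = 0.121), delta replicate 1 (0.0785) or delta replicate 3 (0.0890). It was also lost with no filter (0.0539) and without the 5 arrays numbered 1 (0.0810). Xbp1 lost its alpha minus delta call without any 1 array of either group except alpha replicate 2 (adjusted p up to 0.163), and its delta minus epsilon call without delta replicate 3 (0.0617). Without the 5 arrays numbered 1, these Xbp1 calls were lost too (0.124 and 0.0573). The dim probe set lost its call without delta replicate 2 or 3 or any beta array (up to 0.137), without the 5 arrays numbered 1 (0.0666) and in a fit of beta and delta alone (0.0611).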

How the results depend on the processing

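Of the 11 member calls against vector, 6 were kept in every alternative and with any 1 array left out. All 6 were calls of the same gene, from the 2 brighter Pdia6 probe sets, which share a database sequence. Every call of Xbp1, Hsp90b1, Canx and the dimmest Pdia6 probe set was lost in at least 1 fit. No called member value changed sign. Of the 33 member values that were not called, 22 were never called in any alternative. In alpha, the 3 calls became 5 with quantile normalization, 6 on the deposited scale (1 of them lower, Hspa5) and 6 with the replicate block. In beta, the 3 calls became 5 with array weights and 5 with the replicate block. Both counts fell to 2 without the 5 arrays numbered 1 and ran from 2 to 4 with 1 array left out (2 without vector replicate 1 in both, and in beta also without beta replicate 2 or 3), and beta gave 2 with the filter on 12 of 15 arrays. In epsilon, the 5 calls became 3 with no filter, in a fit of the compared groups alone, in the univariate test and without the 5 arrays numbered 1, and 3 to 5 when 1 array was left out. In the F-test over the 4 C/EBP groups, 3 calls became 5 with quantile normalization, array weights or the replicate block, 1 without the 5 arrays numbered 1, and 1 to 3 with 1 array left out (1 without delta replicate 3). The 8 calls among pairs of C/EBPs became 15 with array weights, 14 with the replicate block, 5 without the 5 arrays numbered 1 and 4 to 9 with 1 array left out (4 without delta replicate 3). Fewer arrays enter such fits.

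Arrays share only a number in their titles, and number 1 stands for titles without one. Correlations of deviations between same-numbered arrays were 0.22 to 0.44 for number 1, 0.02 to 0.43 for number 2 and -0.07 to 0.12 for number 3, and 13 of 15 arrays correlated best with their own number. With the replicate block, Pdia4 was called in alpha, beta and epsilon (adjusted p = 0.0288, 0.0163 and 0.00518), Hsp90b1 in alpha and beta (0.00280 and 0.0245) and Hspa5 lower in alpha (0.0411). Member calls with that block numbered 0 in delta, 6 in epsilon and 6 in the F-test over 5 groups.

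Values near 0 that were not called changed sign. Without the 5 arrays numbered 1, delta read -0.10 for Hsp90b1, -0.29 for the dim Pdia6 probe set and -0.0664 for Xbp1, and alpha read -0.22 for P4hb. With array weights, the brighter Canx probe set read 0.0400 in beta, and in delta Pdia4 read 0.14 and the dim Pdia6 probe set -0.0291. With 1 array left out, delta values ran from -0.14 to 0.22 for Hsp90b1, -0.25 to 0.17 for Pdia4, -0.19 to 0.22 for the dim and -0.0236 to 0.112 for a bright Pdia6 probe set, -0.0489 to 0.448 for P4hb and -0.0207 to 0.168 for Xbp1. Pdia3 ran from -0.0320 to 0.321 in alpha, -0.23 to 0.12 in beta and -0.0488 to 0.305 in epsilon, and P4hb from -0.24 to 0.19 in alpha and -0.102 to 0.0430 in epsilon. Of 76 calls of named list genes, 47 were kept throughout and 29 were lost in at least 1 fit. The cause of these changes was not tested. The fibroblast marker calls of Thy1 in alpha and Pdgfrb in beta were not put through the alternatives. Low signal limits Calr and 1 P4hb probe set.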
